A study of Mus musculus with 18 samples.

Results

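Bone marrow cells carrying the fusion gene BRD9-NUTM1 (BN1) were compared with cells carrying AFF1-NUTM1 (AFFN1) on day 14, across all genes. The comparison used 6 of the 18 RNA libraries of the series, 3 of each fusion, chosen by their day 14 labels. Every group consisted of CD45.2(+) iLS cells of the C57BL/6 mouse strain, taken from bone marrow and isolated by flow sorting. The BN1 group had the genotype CD45.2(+) BRD9-NUTM1 and the AFFN1 group the genotype CD45.2(+) AFF1-NUTM1, and 3 day 14 control libraries of the genotype CD45.2(+) with no fusion entered the same fit. The same 3 genotypes on day 6 made up the other 9 libraries. The sources used here do not expand iLS, and they give neither the vector, nor the promoter that drives the fusions, nor the species of the NUTM1 part.

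Each day 14 library name carries a code, 0716, 0730 or 0802, and each code occurs once in BN1, once in AFFN1 and once in control. These codes paired the libraries. The labels do not say whether libraries came from separate cultures or animals, so p-values measure the spread between these libraries, which may be technical. Values of 3 libraries are given in the order 0716, 0730, 0802, in CPM, which are reads of a gene per 1000000 reads after scaling for library composition. The 6 libraries held 17.8 to 18.3 x 1000000 reads, and a gene with 0 reads in a library may still have had up to 0.161 to 0.180 CPM, counting 3 reads as the limit.

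BRD9 is a bromodomain subunit of a SWI/SNF chromatin remodelling complex, and AFF1 is a scaffold of the super elongation complex, which releases paused RNA polymerase II. NUTM1 is normally restricted to the testis, and its fusion proteins recruit the acetyltransferases p300 and CBP. NUTM1 fusions with either partner are known from precursor B-cell leukaemia of infants, where HOXA genes are often high.

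The libraries had the transcripts of early B-lineage cells. Ptprc, which encodes CD45, had 244, 254 and 243 CPM in BN1 libraries, against 246, 253 and 163 CPM in AFFN1 libraries. The signalling chain Cd79a had 1991, 2413 and 2531 CPM in BN1, against 1620, 2251 and 3567 CPM in AFFN1. The surrogate light chain gene Igll1 had 1482, 1657 and 1443 CPM in BN1, against 1332, 1416 and 1695 CPM in AFFN1. These ranges overlapped, as did those of Pax5, the factor that commits cells to the B lineage, with 1018, 1108 and 933 CPM in BN1 and 962, 989 and 748 CPM in AFFN1. Ms4a1, which encodes CD20 of later B cells, had 0 reads in the BN1 libraries and at most 0.161 CPM in AFFN1. Cd3e of T cells had 0 reads in all 6 libraries, and Mpo, Elane and S100a8 of neutrophils had at most 0.0600 CPM in each. Other genes listed for lymphoid, myeloid and dendritic cells were expressed, as given below, so these markers alone do not show that such cells were absent. Of the 12 genes on a list of NUTM1, p300, CBP and bromodomain genes, 9 could be tested, and mouse Nutm1 had 0 reads in the 6 libraries, so it does not check the labels.

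In the day 14 libraries 1 AFFN1 library stood apart from the rest of its group. The leading principal component of the 9 day 14 libraries carried 37.2% of their variance. On it the AFFN1 library with code 0716 lay at -51.6 and the control library with that code at -58.2, while the others lay between 1.16 and 36.6. The code accounted for 41.0% of the variance and the group for 34.0%. Mitochondrial transcripts took 6.75, 5.71 and 6.49% of reads in BN1, against 5.55, 5.43 and 9.32% in AFFN1.

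Few genes passed the test between the fusions. Of 11657 tested genes, 21 (0.180%) had an adjusted p under 0.05 by edgeR's quasi-likelihood test with the code as a block and Benjamini-Hochberg adjustment, and are termed called here. Expression was higher in BN1 for 8 of them (0.0686%) and lower for 13 (0.112%), all 21 in the same direction in all 3 pairs. The groups did not overlap for 18 of the 21, against 16.9% of all tested genes, with 8 higher (8.34%) and 10 lower (8.54%). The adjusted p of the called genes lay between 0.0231 and 0.0482, and 15 differed by more than 2-fold. The median log2 fold change over all tested genes was -0.0025, with 49.6% above 0, and 1930 genes (16.6%) had an unadjusted p under 0.05. Without the block no gene was called by the same test (992 genes, 8.51%, at unadjusted p under 0.05), nor without the BN1 library 0730 (1906 genes) or 0802 (2166 genes), or without all 3 libraries of code 0802 (2163 genes). The count was 14, 90 and 6 without BN1 0716, control 0716 and control 0802, 124 and 5 without all libraries of code 0716 and of code 0730, 190 with no filter on low counts, and 360 (3.09%) by DESeq2 with the same block, which included all 21.

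**Figure D1:**
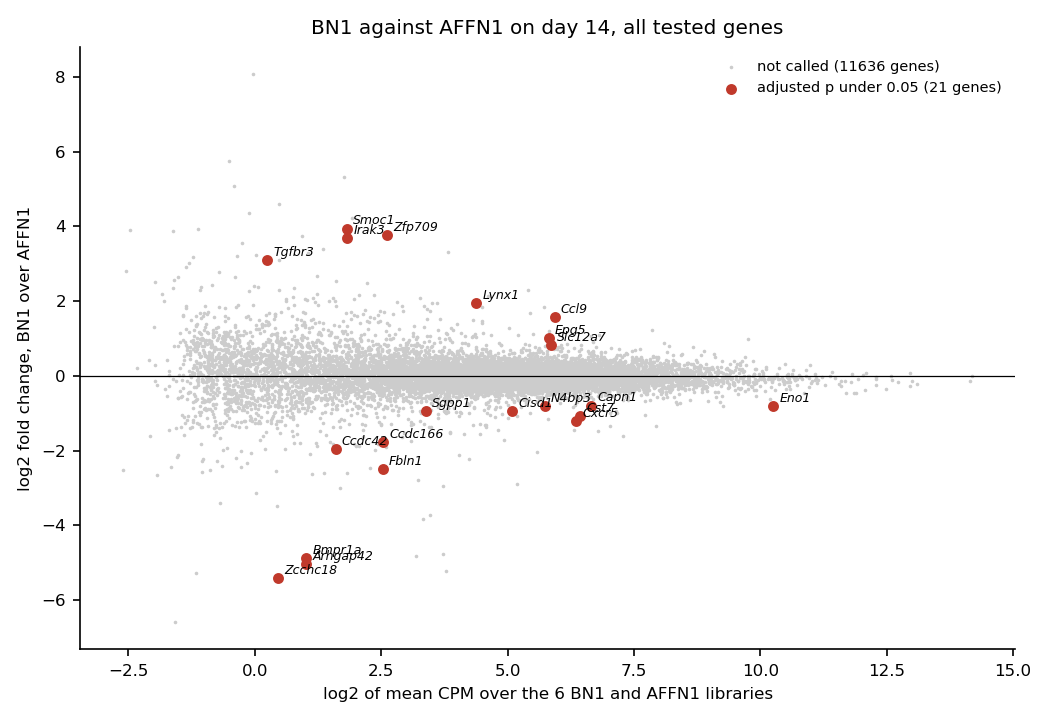
Each point is 1 tested gene, with the log2 of its mean CPM over the 6 BN1 and AFFN1 libraries on the x axis and the log2 fold change of BN1 over AFFN1 on the y axis; red points are the 21 called genes. The called genes lie on both sides of 0, with 8 higher and 13 lower in BN1, and the fall of Eno1 is at the highest expression.

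Some called genes were nearly silent in 1 fusion and expressed in the other. Smoc1, a secreted calcium-binding matrix protein known to modulate bone morphogenetic protein (BMP) signalling, lies at chr12:81026808-81186414 (mm10). It had 8.67, 3.79 and 7.49 CPM in BN1 libraries, against 0.161, 0.542 and 0.600 CPM in AFFN1 libraries, and 0.324, 0.755 and 0.837 CPM in control. Every BN1 library was above every other library, with a log2 fold change of BN1 over AFFN1 of 3.94 ± 0.52 (SE, edgeR adjusted p = 0.0307). Bmpr1a, a receptor of bone morphogenetic proteins at chr14:34410734-34503341, showed the reverse order. It had 0.108, 0.0542 and 0.217 CPM in BN1 (7 reads in all), against 4.89, 2.60 and 4.26 CPM in AFFN1 (210 reads), and 0.216, 0.216 and 0.0598 CPM in control. Its log2 fold change was -4.87 ± 0.56 (SE, edgeR adjusted p = 0.0231), with AFFN1 above both other groups.

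Irak3, which encodes an inhibitor of Toll-like receptor signalling, had 2.31, 9.86 and 7.60 CPM in BN1, against 0.215, 0.813 and 0.420 CPM in AFFN1 (log2 fold change 3.68 ± 0.45, edgeR adjusted p = 0.0237). Tgfbr3, a co-receptor of transforming growth factor beta, had 2.31, 2.55 and 1.52 CPM in BN1, against 0.322, 0.217 and 0.180 CPM in AFFN1 (3.10 ± 0.46, adjusted p = 0.0361). Zfp709, a zinc finger gene, had 9.21, 10.4 and 14.4 CPM in BN1, against 0.161, 1.52 and 1.02 CPM in AFFN1 (3.77 ± 0.49, adjusted p = 0.0329). For all 3 genes the groups were apart, and the control libraries, with means of 1.25, 0.515 and 0.710 CPM, lay near AFFN1.

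Ccl9, a chemokine that acts on the receptor CCR1, lies at chr11:83572919-83578636 and was the most abundant gene that rose. It had 89.1, 107 and 78.3 CPM in BN1, against 31.1, 30.2 and 30.1 CPM in AFFN1 and 17.8, 17.8 and 7.83 CPM in control. The 3 groups did not overlap, and BN1 was 2.96-fold above AFFN1 (log2 fold change 1.56 ± 0.21, edgeR adjusted p = 0.0361). Lynx1, a Ly6-family protein that modulates nicotinic acetylcholine receptors, had 32.6, 37.1 and 29.5 CPM in BN1, against 5.58, 12.0 and 8.52 CPM in AFFN1 (1.94 ± 0.27, adjusted p = 0.0361). Its control libraries, at 23.9, 15.7 and 18.6 CPM, lay between the fusions. Epg5, a tether for the fusion of autophagosomes with lysosomes, averaged 75.4 ± 12.6 CPM in BN1 libraries and 37.2 ± 3.96 CPM in AFFN1 libraries (SD, n = 3 each), and its log2 fold change was 1.01 ± 0.16 (edgeR adjusted p = 0.0482). Slc12a7, a potassium-chloride cotransporter, averaged 74.0 ± 2.32 CPM in BN1 libraries and 42.1 ± 8.06 CPM in AFFN1 libraries (SD, n = 3 each), and its log2 fold change was 0.83 ± 0.12 (edgeR adjusted p = 0.0361).

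Genes lower in BN1 included receptors, proteases and their inhibitors, and metabolic enzymes. Cxcr5, the receptor of CXCL13 that guides B cells to follicles, lies at chr9:44511787-44561877. It had 57.6, 21.9 and 67.7 CPM in BN1, against 162, 51.8 and 130 CPM in AFFN1 and 207, 103 and 205 CPM in control. Within each code BN1 was lowest and control highest, but the 0730 AFFN1 library lay below 2 BN1 libraries, so the groups overlapped (log2 fold change -1.22 ± 0.15, edgeR adjusted p = 0.0237). Cst7, which encodes cystatin F, an inhibitor of lysosomal cysteine proteases, had 83.5, 31.2 and 44.0 CPM in BN1, against 219, 70.7 and 70.9 CPM in AFFN1 (-1.08 ± 0.16, adjusted p = 0.0361). Here too the ranges overlapped and the pairs did not. Capn1, the calcium-dependent protease calpain 1, had 80.6, 58.6 and 81.6 CPM in BN1, against 143, 114 and 125 CPM in AFFN1 (-0.80 ± 0.11, adjusted p = 0.0307).

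Sgpp1, a phosphatase that removes sphingosine-1-phosphate, had 7.43, 8.07 and 5.97 CPM in BN1, against 14.7, 13.8 and 12.5 CPM in AFFN1 (log2 fold change -0.94 ± 0.15, edgeR adjusted p = 0.0420). Cisd1, an iron-sulphur protein of the outer mitochondrial membrane, had 20.6, 20.2 and 28.8 CPM in BN1, against 52.5, 35.9 and 46.6 CPM in AFFN1 (-0.95 ± 0.15, adjusted p = 0.0391). Both had separate groups, and both had nearly the same mean in AFFN1 and control, with 13.7 and 13.7 CPM for Sgpp1 and 45.0 and 44.9 CPM for Cisd1. N4bp3 averaged 38.3 ± 3.91 CPM in BN1 libraries and 68.3 ± 15.2 CPM in AFFN1 libraries (SD, n = 3 each), with a log2 fold change of -0.81 ± 0.12 (edgeR adjusted p = 0.0361). Its control mean of 34.4 CPM was near BN1.

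A further 5 called genes were at low levels. Fbln1, the matrix protein fibulin 1, at chr15:85205949-85286535, had 2.64, 0.921 and 1.79 CPM in BN1, against 14.1, 7.59 and 7.62 CPM in AFFN1 and 3.56, 0.917 and 1.49 CPM in control (BN1 over AFFN1 -2.50 ± 0.28, edgeR adjusted p = 0.0231). Arhgap42 had 0.108, 0 and 0.217 CPM in BN1 (6 reads), against 6.82, 1.90 and 3.06 CPM in AFFN1 (213 reads), and a log2 fold change of -5.04 ± 0.64 (edgeR adjusted p = 0.0237). AFFN1 was above BN1 in every pair for both genes, with groups apart. Ccdc166, a coiled-coil gene, averaged 2.58 ± 0.32 CPM in BN1 libraries and 8.99 ± 2.45 CPM in AFFN1 libraries (SD, n = 3 each), with a log2 fold change of -1.78 ± 0.24 (edgeR adjusted p = 0.0307). Ccdc42, a coiled-coil gene required for sperm formation in mice, averaged 1.31 ± 0.89 CPM in BN1 libraries and 4.73 ± 2.26 CPM in AFFN1 libraries (SD, n = 3 each), with a log2 fold change of -1.96 ± 0.30 (edgeR adjusted p = 0.0380). Zcchc18 on the X chromosome had 3 reads over the BN1 libraries and 145 over the AFFN1 libraries (edgeR adjusted p = 0.0329), a ratio of AFFN1 to BN1 of 49.9 with a 95% counting interval of 16.7 to 245. Ccdc42, Bmpr1a and Zcchc18 were not reached by the rule for genes to be named, and they were added after their values were seen because they complete the 21.

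**Figure D2:**
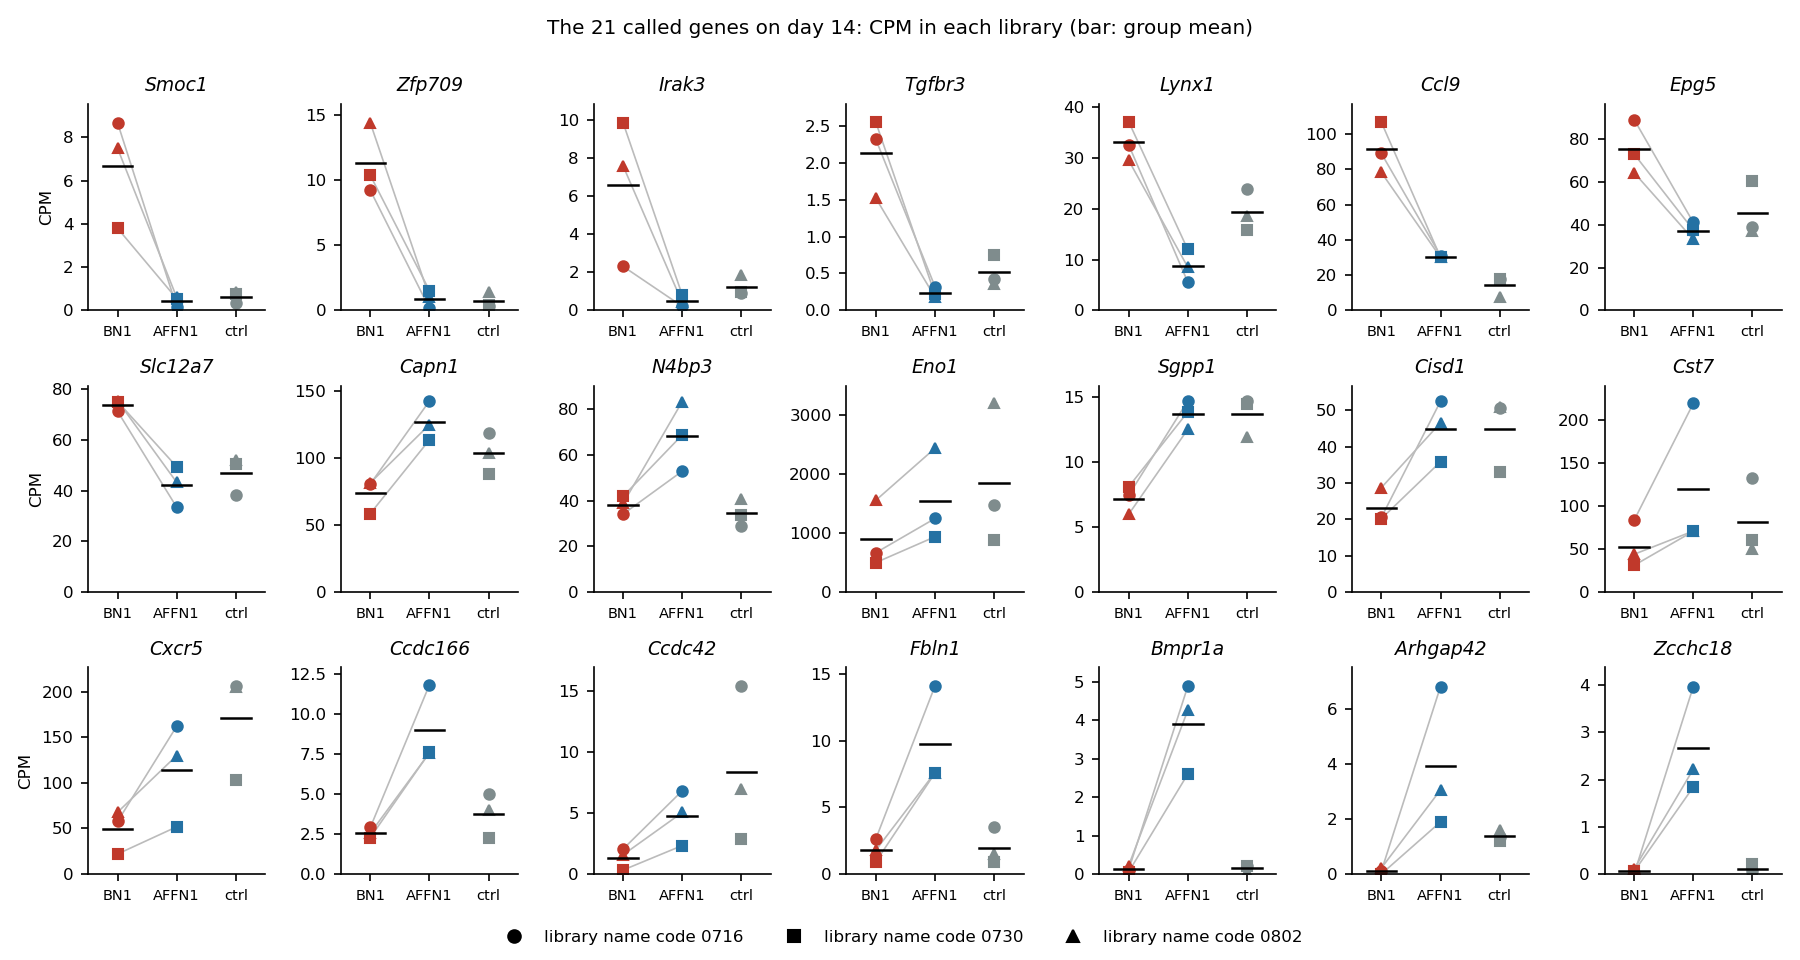
Each panel is 1 of the 21 called genes, ordered by log2 fold change, with CPM on a y axis that starts at 0 and the BN1, AFFN1 and control libraries side by side; point shapes mark the codes, grey lines join libraries of 1 code and bars are group means. BN1 and AFFN1 do not overlap except for Eno1, Cst7 and Cxcr5, where the pairs still run in 1 direction.

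Each fusion was also set against the 3 control libraries in the same fit, which both comparisons share. BN1 differed from control for 1348 genes (11.6%) and AFFN1 for 65 (0.558%) at an edgeR adjusted p under 0.05. Of the 21 genes called between the fusions, 15 were called in BN1 against control and not in AFFN1 against control, 7 of them higher and 8 lower in BN1. These were Smoc1, Zfp709, Irak3, Tgfbr3, Ccl9, Epg5, Slc12a7, Capn1, Eno1, Sgpp1, Cisd1, Cst7, Cxcr5, Ccdc42 and Arhgap42. Another 5, Bmpr1a, Zcchc18, Fbln1, N4bp3 and Ccdc166, were called higher in AFFN1 against control and were not called in BN1. The 21 were chosen by the difference between these same BN1 and AFFN1 libraries, which favours a difference of a fusion from control. The split of 15 and 5 is thus a description and no separate test. Ccl9 had a log2 fold change of 2.69 for BN1 over control (edgeR adjusted p = 0.00132) and of 1.13 for AFFN1 over control (adjusted p = 0.0724). Fbln1 had -0.09 for BN1 over control (edgeR adjusted p = 0.867) and 2.42 for AFFN1 over control (adjusted p = 0.00690). Lynx1 was called in neither, with 0.75 for BN1 (edgeR adjusted p = 0.0851) and -1.19 for AFFN1 (adjusted p = 0.112).

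A further 32 genes differed 2-fold or more in each of the 3 pairs, with at least 5 CPM on average in BN1 or AFFN1, without being called (edgeR adjusted p between 0.0507 and 0.379). They are given as values only, since this grouping was chosen after the values were seen. Counting called genes too, 23 of 11657 genes (0.197%) met this rule as higher in BN1 and 16 (0.137%) as lower. Dpp4, the surface peptidase CD26, was the most abundant, with 253, 338 and 371 CPM in BN1, against 80.3, 160 and 179 CPM in AFFN1 and 99.6, 94.6 and 92.1 CPM in control (log2 fold change 1.24 ± 0.21, edgeR adjusted p = 0.0620). Emilin1, a glycoprotein of elastic fibres, had 20.7, 17.0 and 16.2 CPM in BN1, against 3.60, 3.58 and 7.20 CPM in AFFN1 (1.96 ± 0.30, adjusted p = 0.0507). Both genes had separate groups. Eya1, a developmental transcriptional cofactor and phosphatase, had 6.08, 9.65 and 5.97 CPM in BN1, against 0, 0.542 and 0.600 CPM in AFFN1 (edgeR adjusted p = 0.103). Pcp4l1 had 32.5, 23.1 and 20.3 CPM in BN1, against 0.430, 2.93 and 5.46 CPM in AFFN1 (edgeR adjusted p = 0.139). Toll-like receptor gene Tlr6 and Card9, an adaptor of innate receptors, averaged 7.03 and 5.18 CPM in BN1 and 2.08 and 0.940 CPM in AFFN1.

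On the lower side the 2 T-cell receptor gamma constant genes varied in parallel across the codes. Tcrg-C1 had 58.5, 12.9 and 55.1 CPM in BN1, against 180, 37.1 and 132 CPM in AFFN1 (log2 fold change -1.44 ± 0.27, edgeR adjusted p = 0.0792). Tcrg-C2 had 97.9, 15.2 and 122 CPM in BN1, against 350, 59.7 and 287 CPM in AFFN1 (-1.62 ± 0.37, adjusted p = 0.135). Code 0730 was the lowest in both groups, so the groups overlap while the pairs do not. The constant genes are near copies, so reads may be split between them, as they may for Hbb-bs and Pcdhgb6 with their families. Maged1 had 15.2, 14.8 and 12.8 CPM in BN1, against 54.8, 44.7 and 40.7 CPM in AFFN1 (edgeR adjusted p = 0.146), and Acss2, which makes acetyl-CoA from acetate, 3.34, 3.58 and 4.94 CPM in BN1, against 10.0, 8.35 and 15.9 CPM in AFFN1 (adjusted p = 0.0531). For Sdc3, a syndecan, the 0716 AFFN1 library had 56.1 CPM and the other 5 libraries had 0.108 to 2.26 CPM, and its log2 fold change was -3.83, against -2.36 without that library.

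Of the lists of metabolic pathways, that of glycolysis and hypoxia response genes had a called gene. Eno1, the enolase of glycolysis at chr4:150236721-150248879, had 668, 502 and 1555 CPM in BN1, against 1248, 938 and 2436 CPM in AFFN1 and 1483, 884 and 3196 CPM in control. BN1 was 1.76-fold lower, with a log2 fold change of -0.82 ± 0.13 (SE, edgeR adjusted p = 0.0482). Eno1 lost its call under 14 of 19 alternative settings, and its edgeR adjusted p was 0.713 without the block. Its near copy Eno1b, with which reads may be shared, had a log2 fold change of -0.81 ± 0.20 (edgeR adjusted p = 0.113). Code 0802 was the highest in every group, so BN1 0802 lay above AFFN1 0716 and 0730. Of 28 tested genes on the list, 1 was called lower and 0 higher, 23 had a log2 fold change below 0, and 15 were lower in BN1 in all 3 pairs, against 19.7% of all tested genes. Their median log2 fold change was -0.26, against -0.0025 over all tested genes, and -0.35 without the 0716 AFFN1 library, where 0 members were called. Over the 19 alternative settings, 0 to 10 members were called.

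The other 27 tested members did not pass the test. The 28 had log2 fold changes between -0.82 and 1.29, and those nearest to the threshold were enzymes of the pathway. Aldoa, the aldolase that splits fructose bisphosphate, had 275, 238 and 788 CPM in BN1, against 461, 409 and 1509 CPM in AFFN1 (log2 fold change -0.82 ± 0.14, edgeR adjusted p = 0.0585). Pkm, the pyruvate kinase of the last step, had 739, 581 and 1490 CPM in BN1, against 1078, 1021 and 2132 CPM in AFFN1 (-0.63 ± 0.13, adjusted p = 0.0719). Ldha, which makes lactate, had 362, 307 and 706 CPM in BN1, against 746, 495 and 932 CPM in AFFN1 (-0.71 ± 0.16, adjusted p = 0.0778). For all 3 the code 0802 libraries were the highest of each group, and BN1 was lower within every code. Pgam1, Pfkl, Pgk1 and Tpi1, which catalyse other steps of the pathway, had log2 fold changes of -0.68, -0.65, -0.57 and -0.64 (edgeR adjusted p = 0.0743, 0.0791, 0.0859 and 0.0924). BN1 was lower in all 3 pairs for each of these as well. Pfkp, an isoform of phosphofructokinase, had the opposite sign, with 19.1, 11.5 and 31.5 CPM in BN1, against 3.65, 9.76 and 13.2 CPM in AFFN1 (1.29 ± 0.37, edgeR adjusted p = 0.184), and was higher in all 3 pairs.

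The promoters of 2 of these genes are shown because the hypoxia response element, the core sequence ACGTG (or CACGT on the other strand), stands in them. A promoter here is the window of 250 bases before to 50 bases after a start site in RefSeq on GRCm38.p6, and both strands were searched. ACGTG is also part of the E-box CACGTG. Of the 25 list members with a promoter in the table, 19 (76.0%) held the element in at least 1 window, against 29.65% of 9115 tested genes with a promoter. The list was chosen to hold hypoxia response genes, so a high share may come from that choice and is no separate result. Capitals mark the matches, and the lines run 5′ to 3′ on the gene's strand, minus for Aldoa and plus for Pkm.
Aldoa, chr7:126799205-126799504: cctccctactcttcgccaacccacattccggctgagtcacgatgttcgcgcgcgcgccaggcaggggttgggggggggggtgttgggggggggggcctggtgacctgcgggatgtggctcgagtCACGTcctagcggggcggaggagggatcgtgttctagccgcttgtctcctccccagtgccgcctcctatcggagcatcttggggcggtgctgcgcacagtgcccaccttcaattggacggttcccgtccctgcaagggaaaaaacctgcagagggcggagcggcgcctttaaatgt
Pkm, chr9:59656977-59657276: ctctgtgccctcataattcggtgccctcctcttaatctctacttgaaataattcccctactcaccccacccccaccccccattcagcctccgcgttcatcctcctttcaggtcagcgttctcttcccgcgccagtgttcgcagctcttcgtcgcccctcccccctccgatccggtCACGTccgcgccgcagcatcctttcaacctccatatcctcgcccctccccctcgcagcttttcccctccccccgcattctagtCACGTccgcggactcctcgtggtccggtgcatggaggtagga
The element stands once in the Aldoa window and at 2 places in the Pkm window. A match describes the letters of the window and does not show that a factor binds there.

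Genes of oxidative phosphorylation and of the proteasome had small differences in the same direction. Of 75 tested nuclear genes for subunits of the respiratory chain and ATP synthase, 74 had a log2 fold change below 0 and 60 were lower in BN1 in all 3 pairs, against 19.7% of all tested genes. The groups did not overlap for 45 of the 75, against 8.54% of tested genes that were apart and lower, yet 0 were called. The list median was -0.28 with and -0.28 without the 0716 AFFN1 library. Ndufb3 of complex I had 25.7, 25.2 and 30.1 CPM in BN1, against 37.5, 32.0 and 39.4 CPM in AFFN1 (log2 fold change -0.43 ± 0.11, edgeR adjusted p = 0.130). Cox6c of cytochrome oxidase had 61.6, 67.4 and 70.9 CPM in BN1, against 80.1, 82.3 and 99.0 CPM in AFFN1 (-0.38 ± 0.11, adjusted p = 0.155). Atp5c1, the gamma subunit of ATP synthase, had 193, 186 and 184 CPM in BN1, against 215, 249 and 271 CPM in AFFN1 (-0.38 ± 0.12, adjusted p = 0.183). Every BN1 library lay below every AFFN1 library for each of these genes. The 13 mitochondrially encoded protein genes behaved otherwise, with pair medians of 0.21, -0.10 and -0.65 on the log2 scale.

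The Atp5c1 promoter is shown for the motif of NRF1, a factor known to bind promoters of respiratory genes, spelled here as GCGCA and GCGC with any 1 base between them and searched on both strands, and neither this motif nor ACGTG contains the other. Of 62 list members with a promoter, 17 (27.42%) held it, against 12.48% of the 9115 tested genes. Capitals mark the match on the minus strand of RefSeq GRCm38.p6.
Atp5c1, chr2:10080383-10080682: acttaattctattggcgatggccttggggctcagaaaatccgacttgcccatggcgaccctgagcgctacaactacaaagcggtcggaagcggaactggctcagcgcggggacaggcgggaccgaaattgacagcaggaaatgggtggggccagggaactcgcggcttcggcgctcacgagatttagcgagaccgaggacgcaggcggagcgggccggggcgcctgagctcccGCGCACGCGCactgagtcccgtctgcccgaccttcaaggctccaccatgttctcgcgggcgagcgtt
Most members, 45 of 62, held no such letters in their windows, which says nothing of the factor.

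Of 46 tested proteasome genes, 45 had a log2 fold change below 0, with a median of -0.27 and of -0.23 without the 0716 AFFN1 library. In all 3 pairs 33 were lower in BN1, against 19.7% of all tested genes. Psmb7, a catalytic subunit, had 68.3, 67.1 and 63.1 CPM in BN1, against 87.5, 78.8 and 91.6 CPM in AFFN1 (log2 fold change -0.37 ± 0.12, edgeR adjusted p = 0.180). Of 78 genes for mitochondrial ribosomal proteins, 76 had a log2 fold change below 0 and 42 were lower in all 3 pairs, against the same 19.7% (median -0.22). None of these 2 lists had a called gene by edgeR, where 20 proteasome genes and 15 mitochondrial ribosomal genes were lower at an unadjusted p under 0.05, against 7.94% of all tested genes. In bulk RNA, fewer cells of a kind and less RNA per cell cannot be told apart.

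Growth-related lists differed between the codes. All 27 tested ribosome biogenesis genes had a log2 fold change below 0, with a median of -0.33, of -0.16 without the 0716 AFFN1 library and of -0.11 without code 0716. Of these genes 8 were lower in all 3 pairs, against 19.7% of all tested genes. The pair medians were -0.66, -0.48 and 0.21 for codes 0716, 0730 and 0802. Npm1, the nucleolar protein nucleophosmin, had 1053, 783 and 988 CPM in BN1, against 1425, 1202 and 1079 CPM in AFFN1 (-0.40 ± 0.13, edgeR adjusted p = 0.197). The serine, glycine and one-carbon list had the same kind of split, with pair medians of -0.80, -0.47 and 0.16. Phgdh, the first enzyme of serine synthesis, had 115, 102 and 171 CPM in BN1, against 272, 174 and 165 CPM in AFFN1 (edgeR adjusted p = 0.235). Of 35 DNA replication genes, 32 had a log2 fold change below 0 (median -0.24, pair medians -0.36, -0.38 and -0.03). In all 3 pairs 18 were lower, against 19.7% of all tested genes. Tyms, thymidylate synthase, went the other way with 68.3, 71.6 and 49.9 CPM in BN1, against 46.4, 58.6 and 35.8 CPM in AFFN1 (0.44 ± 0.11, edgeR adjusted p = 0.119). The 28 mitosis genes had a median of 0.11. Myc had 211, 92.4 and 234 CPM in BN1, against 370, 168 and 209 CPM in AFFN1 (edgeR adjusted p = 0.269), lower in BN1 in 2 of 3 pairs.

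**Figure D3:**
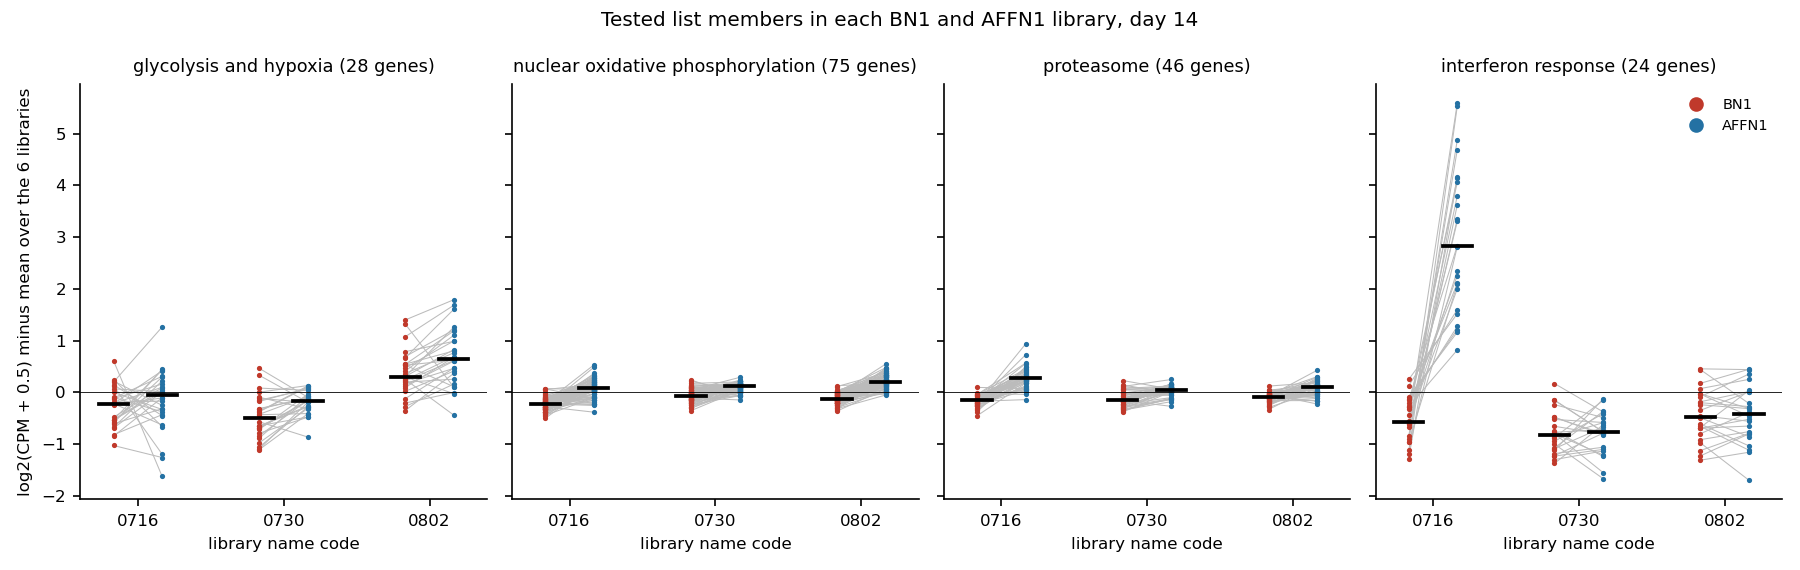
Each point is 1 tested gene of a list in 1 library, as log2(CPM + 0.5) minus its mean over the 6 libraries (y axis), with BN1 left of AFFN1 in each code (x axis); grey lines join the same gene and black bars are medians. In the glycolysis, oxidative phosphorylation and proteasome panels the BN1 median is below the AFFN1 median in every code, whereas in the interferon panel this is large only in code 0716.

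Among lists with at least 6 tested genes, interferon response genes had the largest median in size, and it rested on code 0716. All 24 tested members had a log2 fold change below 0, with a median of -1.07, and 0 were called by edgeR. At an unadjusted p under 0.05 by the same test, 3 were lower, against 7.94% of all tested genes. All 24 were highest, among the AFFN1 libraries, in the one with code 0716. The median CPM of the list was 5.92, 5.12 and 8.52 in BN1 libraries, against 66.1, 5.85 and 10.3 in AFFN1 libraries and 68.1, 9.19 and 6.75 in control libraries. The pair medians were -3.48, 0.00 and -0.10 on the log2 scale. The median was -0.64 in the fit without the 0716 AFFN1 library, where the 0716 control library stays, and -0.12 without all 3 libraries of that code. Oas3, an antiviral oligoadenylate synthetase, had 0.269, 0.379 and 0.434 CPM in BN1, against 80.8, 0.0542 and 0.540 CPM in AFFN1 and 88.5, 0.755 and 0.239 CPM in control. Ly6c2, a Ly6-family surface antigen found on myeloid and some lymphoid cells, had 1.13, 1.08 and 2.33 CPM in BN1, against 210, 1.52 and 1.62 CPM in AFFN1.

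Gbp3, a guanylate-binding protein, was the member nearest to the threshold, with 15.7, 8.40 and 15.7 CPM in BN1, against 37.9, 12.4 and 21.4 CPM in AFFN1 (log2 fold change -0.77 ± 0.17, edgeR adjusted p = 0.0791). It was lower in BN1 in all 3 pairs. The Oas3 promoter is shown for the interferon-stimulated response element, spelled as GAAA, any 2 bases and GAAA, and searched on both strands, which neither contains nor lies within the other motifs. Of 19 list members with a promoter, 13 (68.42%) held it, against 3.785% of the 9115 tested genes. Here too the share may come from the choice of interferon response genes for the list. Capitals mark the match, on the minus strand of RefSeq GRCm38.p6.
Oas3, chr5:120777610-120777909: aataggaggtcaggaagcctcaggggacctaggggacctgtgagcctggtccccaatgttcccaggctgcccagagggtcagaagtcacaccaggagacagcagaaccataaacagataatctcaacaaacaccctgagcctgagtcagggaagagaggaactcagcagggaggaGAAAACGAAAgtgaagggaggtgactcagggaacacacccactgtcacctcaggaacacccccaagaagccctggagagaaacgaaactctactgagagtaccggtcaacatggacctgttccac
The gene with the match had its high values in the 0716 AFFN1 and 0716 control libraries and was below 1 CPM in the other 7.

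No gene of the fused proteins' own complexes was called by edgeR. At an unadjusted p under 0.05 by the same test, 4 of 24 SWI/SNF genes were higher and 0 lower. Of 21 super elongation genes, 6 were higher and 1 lower at that threshold. Over all tested genes the shares were 8.61% higher and 7.94% lower. Brd9 had 47.6, 44.8 and 43.6 CPM in BN1, against 44.7, 43.8 and 38.7 CPM in AFFN1 (log2 fold change 0.10 ± 0.14, edgeR adjusted p = 0.739). Aff1 had 225, 223 and 203 CPM in BN1, against 174, 182 and 136 CPM in AFFN1 and 164, 181 and 165 CPM in control (0.41 ± 0.11, adjusted p = 0.141). For Brd9 the groups overlapped, while every BN1 library exceeded every AFFN1 library for Aff1. Kmt2a, a histone methyltransferase whose fusion partners include AFF1, had 226, 277 and 230 CPM in BN1, against 143, 165 and 137 CPM in AFFN1 (0.72 ± 0.15, adjusted p = 0.0719). Ccnt2, a cyclin of the elongation factor P-TEFb, had 38.9, 53.3 and 59.9 CPM in BN1, against 30.4, 35.8 and 36.7 CPM in AFFN1 (0.55 ± 0.11, adjusted p = 0.0719). The groups were apart for both.

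All 9 tested NUTM1, p300, CBP and bromodomain genes had a log2 fold change above 0 and 7 were higher in BN1 in all 3 pairs (median 0.26), against 20.2% of all tested genes. Crebbp, which encodes CBP, had 117, 124 and 115 CPM in BN1, against 90.3, 95.3 and 79.5 CPM in AFFN1 (log2 fold change 0.43 ± 0.12, edgeR adjusted p = 0.151), with groups apart. Of 24 SWI/SNF subunits, 9 were higher in all 3 pairs and 1 lower (median 0.05), and of 21 genes of the super elongation complex and its partners 6 were higher and 1 lower (median 0.04, 0.07 without the 0716 AFFN1 library and -0.00016 without BN1 0802).

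Meis1 and Hoxa9, which are high in many infant leukaemias, were at most 3.26 CPM in BN1 libraries and at most 0.705 CPM in AFFN1 libraries. Meis1, a Hox cofactor, had 0.969, 1.46 and 2.82 CPM in BN1, against 0.215, 0.217 and 0.600 CPM in AFFN1 and 0.378, 0.108 and 0.777 CPM in control (BN1 over AFFN1 2.37 ± 0.51, edgeR adjusted p = 0.0743). Hoxa9 had 1.08, 1.35 and 3.26 CPM in BN1, against 0.322, 0.705 and 0.600 CPM in AFFN1 (1.69 ± 0.72, adjusted p = 0.283). Its control libraries had 1.94, 0.216 and 0.777 CPM, and BN1 over control was 0.97 (edgeR adjusted p = 0.393). In code 0716 control was above BN1 for Hoxa9, and in the other codes BN1 was above control. Every BN1 library was above every AFFN1 library for both genes, on few reads. Meis1 had 97 reads over the BN1 libraries and 18 over the AFFN1 libraries, and Hoxa9 had 105 and 29. Of the 11 Hoxa cluster genes, 2 could be tested, and Hoxa10 had 0 reads in all 6 libraries. Lin28b, a regulator of the fetal blood programme, had 0, 0.542 and 0.651 CPM in BN1 (22 reads), against 0.0537, 0 and 0 CPM in AFFN1 (1 read), too few to be tested. BN1 was above AFFN1 in 2 of 3 pairs, and in code 0716 the only read was in AFFN1. Of 14 tested Hox cofactors and KMT2A-fusion targets, 12 had a log2 fold change above 0, with a median of 0.35. In all 3 pairs 9 were higher, against 20.2% of all tested genes. The median level of the list was 52.2, 57.1 and 36.6 CPM in BN1, against 51.0, 47.3 and 39.2 CPM in AFFN1.

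Of 23 tested transcription factors of the B lineage, 0 were called by edgeR, but most had small positive log2 fold changes. The value was above 0 for 19 (median 0.21, pair medians 0.36, 0.24 and 0.06). The groups were apart and higher in BN1 for 1 of the 23, against 8.34% of all tested genes. In all 3 pairs 10 were higher in BN1, against 20.2% of all tested genes. At an unadjusted p under 0.05 by the same test, 9 were higher and 0 lower, against 8.61% and 7.94% of all tested genes. Bach2, a repressor of plasma cell fate, had 200, 300 and 156 CPM in BN1, against 134, 200 and 124 CPM in AFFN1 (0.50 ± 0.12, edgeR adjusted p = 0.109). Klf2, a regulator of lymphocyte quiescence and homing, averaged 16.7 ± 8.42 CPM in BN1 libraries and 7.96 ± 5.09 CPM in AFFN1 libraries, SD with n = 3 each (log2 fold change 1.22 ± 0.34, adjusted p = 0.158). Both were higher in BN1 within each code, and both had overlapping ranges. Ebf1, which specifies the B lineage, had a log2 fold change of 0.31 ± 0.14 (edgeR adjusted p = 0.297), and Pax5 of 0.19 ± 0.11 (adjusted p = 0.427).

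Rag1, the recombinase subunit of antigen receptor genes, had 1018, 1033 and 1289 CPM in BN1, against 290, 623 and 962 CPM in AFFN1 and 168, 407 and 345 CPM in control (BN1 over AFFN1 1.00 ± 0.28, edgeR adjusted p = 0.180). Every BN1 library was above every AFFN1 library, and the AFFN1 libraries differed more among themselves than the BN1 libraries did. Rag2 had 161, 174 and 139 CPM in BN1, against 88.5, 125 and 137 CPM in AFFN1 (0.46 ± 0.22, adjusted p = 0.320). Dntt, the polymerase that adds bases at the joints, had 297, 609 and 497 CPM in BN1, against 111, 372 and 543 CPM in AFFN1 (edgeR adjusted p = 0.664), with overlapping groups. Of 24 pro-B and pre-B genes, 0 were called by edgeR (median 0.06, and 0.11 without the 0716 AFFN1 library). In all 3 pairs 4 were higher and 2 lower, against 20.2% and 19.7% of all tested genes. At an unadjusted p under 0.05 by the same test, 3 were higher and 1 lower, against 8.61% and 7.94% of all tested genes. Vpreb2, part of the surrogate light chain, was the nearest to the threshold, with 278, 260 and 365 CPM in BN1, against 480, 346 and 608 CPM in AFFN1 (-0.64 ± 0.12, edgeR adjusted p = 0.0620). Its family member Vpreb1 had a log2 fold change of -0.01 ± 0.13, and reads of these near-identical genes may be shared.

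The surface receptors that stage these cells did not pass the test either. Il7r, the receptor of interleukin 7, had a log2 fold change of 0.36 ± 0.20 (edgeR adjusted p = 0.400) and Kit of 0.45 ± 0.20 (adjusted p = 0.295). Flt3, a receptor of early progenitors, had 0.10 ± 0.19 (edgeR adjusted p = 0.819) and the inhibitory receptor Cd22 had -0.29 ± 0.39 (adjusted p = 0.727), and both changed sign when the BN1 library 0716 was left out. Of 17 tested chemokine genes and their receptors, 1 was called higher, Ccl9, and 1 lower, Cxcr5, against 0.0686% and 0.112% of all tested genes. Neither was called without the block, without BN1 0730, BN1 0802, code 0730 or code 0802, nor Ccl9 without AFFN1 0716, AFFN1 0730 or control 0730 and Cxcr5 without control 0802. Ccr7, which guides lymphocytes to lymph nodes, had 113, 111 and 85.2 CPM in BN1, against 155, 163 and 123 CPM in AFFN1 (-0.51 ± 0.19, edgeR adjusted p = 0.225), with groups apart. Cxcr4, the bone marrow retention receptor, had 330, 436 and 340 CPM in BN1, against 274, 370 and 333 CPM in AFFN1, with overlapping groups. Over all 49 lists, 48 had a tested gene and 2 had a called one.

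Some genes listed for other lymphoid lineages were expressed. Of 16 tested T, NK and innate lymphoid genes out of 32, 0 were called by edgeR. The log2 fold change was above 0 for 10 of the 16 and below 0 for 6 (median 0.22, range -0.99 to 1.53). At an unadjusted p under 0.05 by the same test, 3 were higher and 4 lower, against 8.61% and 7.94% of all tested genes. In all 3 pairs 5 were higher and 5 lower, against 20.2% and 19.7% of all tested genes. Their summed CPM over the 32 genes was 511, 471 and 515 in BN1, against 553, 492 and 554 in AFFN1. Lck, a kinase of lymphocyte signalling, had 112, 108 and 112 CPM in BN1, against 180, 150 and 153 CPM in AFFN1 (-0.54 ± 0.12, edgeR adjusted p = 0.0791). Nkg7, a cytotoxic granule protein, had 15.2, 9.65 and 12.9 CPM in BN1, against 26.2, 15.4 and 34.3 CPM in AFFN1 (-0.99 ± 0.23, adjusted p = 0.0932). Both were lower in BN1 in every library. Beside them, Cd3e was at 0 in every library. The summed CPM of 31 myeloid genes was 290, 207 and 276 in BN1, against 437, 167 and 316 in AFFN1. That of 12 dendritic cell genes was 481, 322 and 237 in BN1, against 433, 225 and 246 in AFFN1. The 5 tested dendritic cell genes had a median of 11.3, 12.1 and 16.8 CPM in BN1, against 89.5, 9.65 and 11.3 CPM in AFFN1. The part of such cells in any of the differences was not tested.

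**Figure D4:**
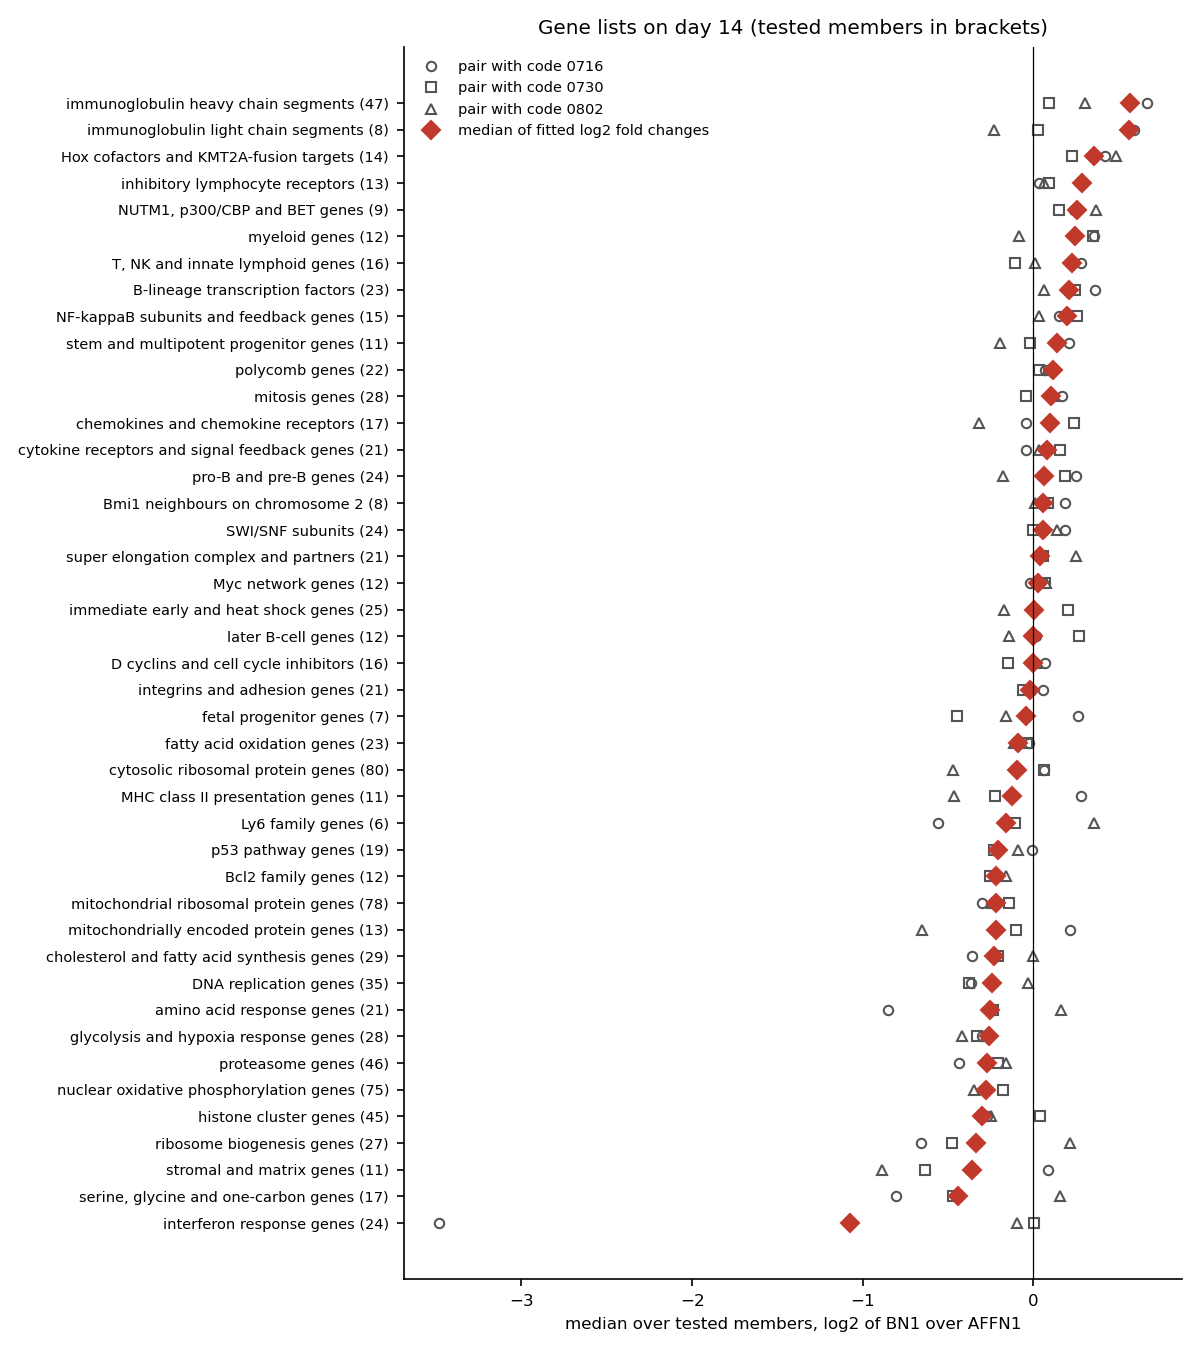
Each row is 1 gene list with at least 6 tested genes (number in brackets), with the log2 of BN1 over AFFN1 on the x axis; red diamonds are medians of the fitted log2 fold changes and open symbols are medians within each code. The interferon list reaches -3.48 in code 0716 and stays near 0 in the other codes, whereas the oxidative phosphorylation, proteasome and glycolysis medians lie below 0 in all 3.

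Set against day 6, the genes called on day 14 mostly had another pattern. On day 6, 1349 of 12068 tested genes (11.2%) were called between BN1 and AFFN1 by edgeR, 602 higher (4.99%) and 747 lower (6.19%) in BN1, and 787 and 725 without AFFN1 day 6 replicates 1 and 2. The day 6 fit had no block, unlike that of day 14. Over all tested genes the median absolute log2 fold change was 0.173 on day 6 and 0.193 on day 14. The fewer calls on day 14 thus do not show smaller differences there, and their cause was not tested. Of the 21 called on day 14, 15 were tested on day 6, of which 6 had the same sign. Both Capn1 and Ccdc166 were called lower in BN1 on both days, 2 genes that are 9.52% of the day 14 calls and 0.148% of the day 6 calls. Smoc1, Lynx1, Cxcr5 and Fbln1 were called in opposite directions. Libraries of day 6 and day 14 are named in different ways and could be separate experiments, so that day and experiment cannot be told apart.

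Values of day 6 libraries, which carry no code, are in the order of their replicate numbers. Cxcr5 had 13.9, 14.6 and 14.3 CPM in BN1 on day 6, against 1.27, 1.55 and 3.20 CPM in AFFN1 (log2 fold change 2.82 ± 0.37, edgeR adjusted p = 0.000832), where on day 14 its log2 fold change was -1.22. Smoc1 had 0.517, 0.0645 and 0.446 CPM in BN1 on day 6, against 4.00, 3.58 and 1.66 CPM in AFFN1 (-3.12 ± 0.68, adjusted p = 0.0147), where on day 14 it was 3.94. In each case the groups were apart on both days, except for Cxcr5 on day 14. Dpp4 averaged 5.07 ± 3.57 CPM in BN1 libraries and 47.5 ± 4.82 CPM in AFFN1 libraries on day 6 (SD, n = 3 each), the reverse of its day 14 order. Ccdc166 averaged 0.0192 ± 0.0332 CPM in BN1 libraries and 8.02 ± 1.54 CPM in AFFN1 libraries on day 6 (SD, n = 3 each). A test of the change between days called 661 of 12567 genes (5.26%), 3.23% more positive and 2.03% more negative on day 14. It called 430, 407 and 415 genes without BN1 day 6 replicate 2 and AFFN1 day 6 replicates 1 and 2. Among the 661 were 15 of the 21. The 21 were chosen by their day 14 difference, which is part of the change, so their share is not to be read against 5.26%. Of the 1252 day 6 calls tested on day 14, 736 (58.8%) had the same sign there.

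**Figure D5:**
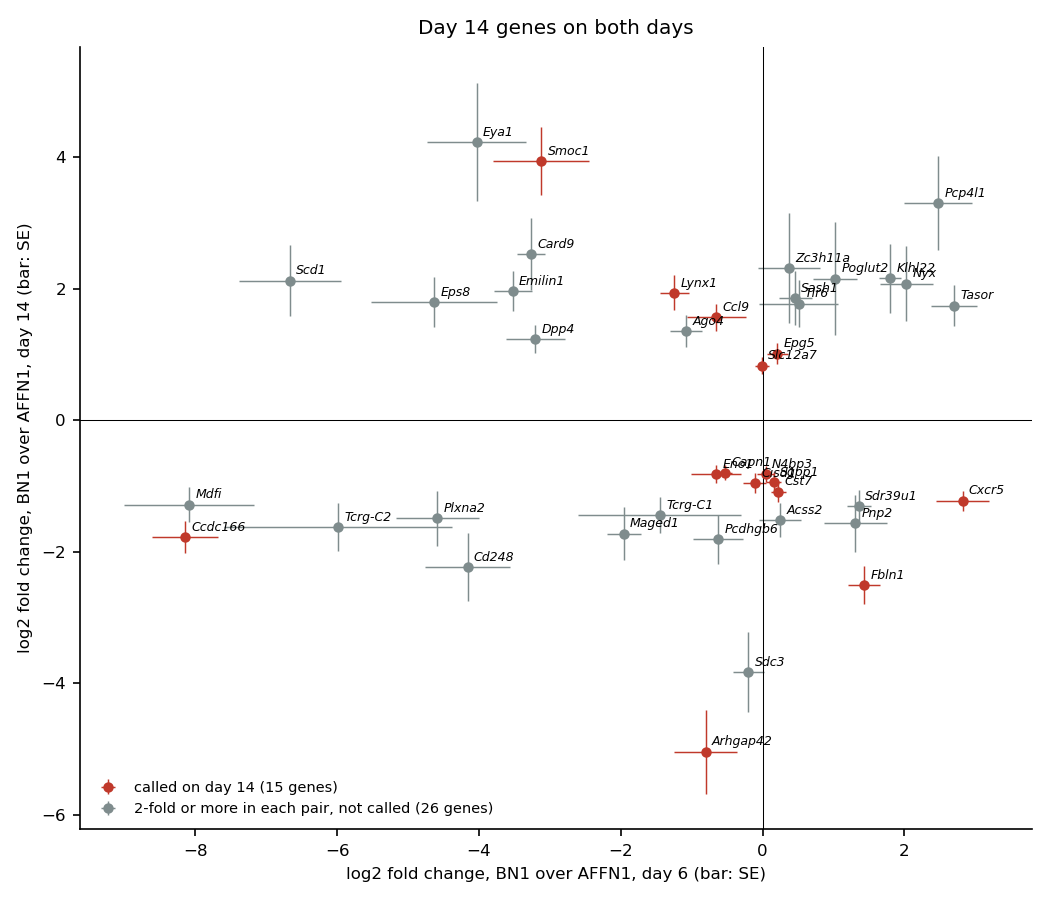
Points are genes called on day 14 (red, 15 genes) or 2-fold apart in each pair without a call (grey, 26 genes) that were tested on both days, with the log2 fold change of BN1 over AFFN1 on day 6 on the x axis and on day 14 on the y axis; bars are SE. Smoc1, Lynx1, Eya1 and Dpp4 lie in the upper left, lower in BN1 on day 6 and higher on day 14, and Cxcr5 and Fbln1 in the lower right.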

How the data were processed

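RNA was measured in 18 libraries, of which the 9 of day 14 carry this comparison. Libraries were poly(A)-selected and stranded, per the labels' protocols. The deposited table holds expected counts per gene, made by the authors with STAR and RSEM on mm10, with DESeq2 also named, per the submitters' processing notes. The sources used here do not give versions, annotation or the strand setting, so reads of overlapping antisense genes cannot be assigned. Expected counts were rounded to whole numbers (1.91 to 2.10% of values in the 6 libraries were not whole).

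Genes were filtered with filterByExpr and scaled by TMM in edgeR 4.0.16 (R 4.3.3). BN1 and AFFN1 were compared by its robust quasi-likelihood test, two-sided, on the 9 day 14 libraries with group and code as terms (4 residual degrees of freedom), with Benjamini-Hochberg adjustment over 11657 genes. Day 6 was fitted on its own 9 libraries without a block, and the change between days on all 18, with the code of day 14 libraries as a block. Log2 fold changes come from these fits. List medians within pairs used a pseudocount of 0.5 CPM. The pairing comes from the code in the library names, and libraries with the same code deviated together from their group means (correlations of 0.291 to 0.614 over 9 pairs, against -0.503 to 0.0141 over 18 pairs with different codes). Replicates differed by more than counting noise. Coordinates come from GENCODE M21 on mm10, which held 99.85% of the gene identifiers, and promoters from RefSeq GRCm38.p6.

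Named genes were, in each direction, the 15 called genes with the largest change, the 10 with the largest difference in mean CPM and the 5 with the smallest adjusted p, all moving alike in the 3 pairs. Genes chosen by change or by p also needed an average of 5 CPM in BN1 or AFFN1. To these came 20 fixed genes and up to 4 called members of each list with a mean of at least 1 CPM. The members and the 49 lists were chosen with earlier results of these data known. Alternatives were no block, 6 libraries only, scaling by relative log expression (RLE), DESeq2 1.42.0, no filter, a stricter filter of 1 CPM in 3 libraries, no robust estimation, and leaving out libraries or codes. Intervals and floors cover counting error only. A few genes are not reported here.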

Additional observations from a re-analysis of the deposited data

Results flagged for a closer look

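The log2 fold change of BN1 over AFFN1 differed between day 14 and day 6 for 40 of the 144 genes examined, by edgeR's quasi-likelihood test of the difference itself at an adjusted p under 0.05. The difference (day 14 minus day 6) was positive for 23 genes and negative for 17. Of the 36 with a fold change on both days, 31 had opposite signs. For some of these the day 6 value was near 0. Slc12a7 had -0.01 ± 0.10 on day 6 (edgeR adjusted p = 0.959) and N4bp3 had 0.04 ± 0.12 (adjusted p = 0.866). An opposite sign alone is therefore not a reversal. Many of the genes examined were chosen by their day 14 difference, which favours such a change, so the count is not to be read against the 661 of 12567 genes (5.26%) over the whole table. All 40 differences kept their sign without the 0716 AFFN1 library, and 30 were still called. Day and experiment cannot be told apart here.

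It was positive, in log2 units, for Scd1 by 8.76, Eya1 by 8.25, Smoc1 by 7.06, Mdfi by 6.73, Eps8 by 6.43, Ccdc166 by 6.34, S1pr3 by 5.82, Card9 by 5.76, Emilin1 by 5.48, Plch1 by 4.97 and Dpp4 by 4.44. The smaller positive differences were for Irak3 by 4.24, Tgfbr3 by 4.08, Lynx1 by 3.18, Syk by 2.61, Meis1 by 2.61, Ago4 by 2.43, Pfkp by 2.25, Ccl9 by 2.21, Tcf7 by 2.08, Id3 by 1.52, Slc12a7 by 0.84 and Ccnt2 by 0.63. Smoc1, Irak3, Tgfbr3, Lynx1, Ccl9 and Slc12a7 are called genes of day 14, and Ccdc166 was called lower in BN1 on both days. Mdfi was also lower in BN1 on both days, with log2 fold changes of -8.09 on day 6 and -1.28 on day 14. BN1 libraries of day 6 had 0.0575, 0 and 0 CPM of Scd1 and of Ccdc166, and 0 CPM of Mdfi. Eya1 had 0.0575, 0 and 0.255 CPM there. The sizes of these differences rest on values at or near 0 and are imprecise.

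It was negative for Usp18 by -5.30, Arhgap42 by -4.24, Cxcr5 by -4.04, Fbln1 by -3.94, Bmpr1a by -3.89, Sdc3 by -3.65, Pnp2 by -2.89 and Sdr39u1 by -2.68. The smaller negative differences were for Cd5 by -1.87, Acss2 by -1.77, Nkg7 by -1.49, Cst7 by -1.31, Sgpp1 by -1.10, N4bp3 by -0.87, Cisd1 by -0.85, Ndufb3 by -0.57 and Lck by -0.57. Usp18, an interferon-induced protease, had 0.431, 0.271 and 0.326 CPM in BN1 on day 14, against 52.5, 0.542 and 0.540 CPM in AFFN1, and its difference was -3.96 (edgeR adjusted p = 0.134) without the 0716 AFFN1 library. That of Sdc3 was -2.23 without it (edgeR adjusted p = 0.0495).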

How the results depend on the processing

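The count of 21 called genes on day 14 was 0 without the replicate block, 360 by DESeq2 (202 higher, 158 lower) and 190 with no filter on low counts (99 higher, 91 lower). All 21 were among those 360 and among those 190. Higher genes made up 38.1% of calls, 56.1% by DESeq2 and 52.1% with no filter. The count ranged from 0 to 124 when libraries or codes were left out, with 0 without BN1 0730, BN1 0802 or code 0802, 5 without code 0730, 6 without control 0802, 90 without control 0716 and 124 without code 0716. With 6 libraries, RLE scaling, the stricter filter or no robust estimation it was 24, 20, 23 and 15. These calls included 11, 20, 21 and 14 of the 21. Without AFFN1 0716, 0730 or 0802 the count was 20, 21 and 15, with 10, 9 and 6 of the 21 among them. A similar count thus does not mean the same genes. The cause of these shifts was not tested. No called gene changed direction under any of these settings.

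On day 6 the count of 1349 was 1233 with the replicate numbers as a block and ranged from 725 to 1897 with a library left out. The count of 661 changes between days was 293 without the replicate block and ranged from 407 to 695 with a library left out. Without BN1 0716 the log2 fold change was -0.16 for Dntt, -0.11 for Flt3 and 0.07 for Cd22. Without AFFN1 0716 it was 0.14 for Cd22, and without code 0716 it was -0.07 for Flt3 and 0.23 for Cd22. With libraries or codes left out in turn, it ranged up to 1.19 for Dntt and 0.33 for Flt3, and down to -0.83 for Cd22. Of 25 list medians, 20 kept their sign under every alternative, and those of chemokines, cytosolic ribosomal proteins, interferon response, MHC class II and super elongation genes did not. At the depth of these libraries, 3 reads were 0.161 to 0.180 CPM, which limits genes under 1 CPM.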

Other observations

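Lists not described above also had 0 called genes by edgeR's quasi-likelihood test. Over all tested genes, 20.2% were higher and 19.7% lower in BN1 in all 3 pairs. At an unadjusted p under 0.05 by that test, 8.61% were higher and 7.94% lower. Of 47 tested immunoglobulin heavy chain segments, 41 had a log2 fold change above 0 and 18 were higher in BN1 in all 3 pairs (median 0.57, and 0.37 without the 0716 AFFN1 library and 0.27 without code 0716; 5 higher at an unadjusted p under 0.05), and near-identical segments can share reads. Of 12 tested Bcl2 family genes, 6 were lower in BN1 in all 3 pairs (median -0.22; 2 higher and 2 lower at an unadjusted p under 0.05). Bax, which promotes cell death, averaged 47.3 ± 2.38 CPM in BN1 libraries and 65.1 ± 8.95 CPM in AFFN1 libraries, SD with n = 3 each (log2 fold change -0.45 ± 0.12, edgeR adjusted p = 0.119). Bcl2l2, which opposes it, had 16.3, 16.6 and 15.7 CPM in BN1, against 8.38, 11.0 and 11.3 CPM in AFFN1 (log2 fold change 0.67 ± 0.15, edgeR adjusted p = 0.0778). Both had groups that did not overlap. Of 29 tested cholesterol and fatty acid synthesis genes, 26 had a log2 fold change below 0 and 13 were lower in BN1 in all 3 pairs (median -0.23, and -0.11 without code 0716; 1 higher and 6 lower at an unadjusted p under 0.05).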
